A study of Mus musculus with 16 samples.

Results

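The genes described here are 32 genes of glycolysis and of the transcription factor HIF-1 in mouse bone marrow-derived macrophages (BMDM), which are macrophages grown in culture from marrow cells. They were chosen by name: every row of the count table whose Ensembl identifier maps to 1 of the 32 listed symbols is a member, and 32 of 32 were found among 43430 genes. Marrow of C57BL/6J mice was cultured with macrophage colony-stimulating factor at 20 ng/mL, and the cells were harvested on day 6 and plated in minimal essential medium (MEM). The 4 groups, with 4 libraries each, were cells given lipopolysaccharide (LPS, a bacterial cell wall component) at 100 ng/mL in MEM without serine, cells given LPS at the same dose in MEM with serine, untreated cells in MEM without serine, and untreated cells in MEM with serine. RNA was taken 4 h after LPS. All groups share the strain, the growth factor and the medium apart from serine. The labels do not say how many mice gave the marrow or whether replicates are separate animals, so p-values measure only the spread between these 16 libraries.

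Glycolysis converts glucose to pyruvate in a chain of enzymes, most of which exist as several isozymes made from different genes. Transporters bring glucose in and carry lactate out, and the bifunctional PFKFB enzymes set the level of an activator of phosphofructokinase. HIF-1 is made of an oxygen-regulated alpha subunit, encoded by Hif1a, and a stable partner; prolyl hydroxylases of the EGLN family mark the alpha subunit for degradation when oxygen is present. Many glycolytic genes, and the hydroxylase genes themselves, are HIF-1 targets, the hydroxylases as negative feedback. Macrophages given LPS are known to take up more glucose and release more lactate. Serine can be made from 3-phosphoglycerate, the product of the Pgk1 step of glycolysis, as well as taken from the medium.

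Promoters are shown for 6 members that carry the results reported below: members that rose strongly after LPS (Slc2a6, Pfkfb3, Slc2a1), a member with the opposite response (Pfkfb4), and the members called lower after serine withdrawal in LPS-treated cells with the replicate block (Eno1, Slc16a3). Each line holds the 250 bases before the gene start of RefSeq on GRCm38.p6, written 5′ to 3′ on the strand of the gene. Capitals mark the core of the HIF binding element, ACGTG or GCGTG, on either strand, so that CACGT and CACGC are the same letters read on the other strand.
Slc2a6 (chr2:27027999-27028248, minus strand): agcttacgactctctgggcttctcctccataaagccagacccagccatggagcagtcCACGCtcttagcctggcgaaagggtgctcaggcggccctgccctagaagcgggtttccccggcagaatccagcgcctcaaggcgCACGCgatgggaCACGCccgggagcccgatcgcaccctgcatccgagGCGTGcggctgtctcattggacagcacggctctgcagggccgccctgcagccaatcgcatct
Pfkfb3 (chr2:11553930-11554179, minus strand): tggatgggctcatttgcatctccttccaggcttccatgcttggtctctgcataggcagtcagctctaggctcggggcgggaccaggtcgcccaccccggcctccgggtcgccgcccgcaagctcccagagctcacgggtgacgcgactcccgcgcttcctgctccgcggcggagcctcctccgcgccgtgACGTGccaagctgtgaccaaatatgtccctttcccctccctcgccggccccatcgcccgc
Slc2a1 (chr4:119108495-119108744, plus strand): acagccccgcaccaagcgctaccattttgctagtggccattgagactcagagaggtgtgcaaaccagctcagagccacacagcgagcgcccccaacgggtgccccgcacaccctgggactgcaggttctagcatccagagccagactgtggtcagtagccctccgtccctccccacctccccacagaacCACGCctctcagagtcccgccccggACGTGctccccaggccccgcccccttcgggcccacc
Pfkfb4 (chr9:108991652-108991901, plus strand): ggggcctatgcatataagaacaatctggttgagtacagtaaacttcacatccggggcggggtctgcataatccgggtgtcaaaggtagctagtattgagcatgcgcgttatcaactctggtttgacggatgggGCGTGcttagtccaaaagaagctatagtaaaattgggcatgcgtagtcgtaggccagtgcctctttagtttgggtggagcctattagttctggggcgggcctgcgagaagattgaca
Eno1 (chr4:150236458-150236707, plus strand): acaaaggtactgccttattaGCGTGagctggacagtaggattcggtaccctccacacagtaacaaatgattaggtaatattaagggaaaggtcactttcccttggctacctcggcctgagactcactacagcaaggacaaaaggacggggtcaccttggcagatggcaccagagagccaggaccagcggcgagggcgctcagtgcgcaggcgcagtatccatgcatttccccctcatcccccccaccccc
Slc16a3 (chr11:120948817-120949066, plus strand): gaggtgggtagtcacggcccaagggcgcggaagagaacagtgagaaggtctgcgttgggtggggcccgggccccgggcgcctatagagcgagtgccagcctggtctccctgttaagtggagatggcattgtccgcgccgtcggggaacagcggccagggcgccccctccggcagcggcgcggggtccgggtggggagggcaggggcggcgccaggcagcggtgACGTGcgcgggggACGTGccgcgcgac
Of the 32 members, 30 had a promoter in the RefSeq table, and Slc2a3 and Ndrg1 did not. ACGTG stood in 15 of these 30 promoters (50%), against 16.6% of 32851 promoters of the same length. GCGTG stood in 15 of 30, against 28.2% of all promoters. CACGTG, which contains ACGTG and is also the element bound by E-box factors, stood in 5 of 30 (16.7%), against 6.02%. Among the 9 members with a promoter that were higher after LPS in both media, 6 held ACGTG, and among the other 21 members 9 did. Slc2a6 held no ACGTG but 4 GCGTG, and Pfkfb4, with the opposite response, held 1 GCGTG. The RefSeq start lay at the deposited gene start for Slc2a6 and Pfkfb4, and 13 to 587 bases from it for the other 4 printed promoters. Among the counted promoters that are not printed, it lay 6492 bases away for Hif1a and 4329 bases away for Ldha. Both of these enter the counts as promoters with ACGTG (3 and 5 matches). A match is a stretch of letters, not a measured binding site.

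Total counts ranged from 2871477 to 10043362 per library. Replicate 4 of the untreated cells without serine stood apart, with the lowest total, 12900 genes detected and 23.1% of counts in its top 20 genes, against 14000 to 16031 genes and 12.3% to 17.3% in the other 15 libraries. Replicate 1 of every group lacked the female transcript Xist (0 counts) and had 1184 to 2391 counts of Y-linked genes, whereas Xist reached 351 to 1477 counts and Y-linked genes at most 1 count in the remaining 12 libraries, so sex and replicate 1 cannot be told apart. Libraries of the same replicate number deviated together from their group means in all 4 comparisons of groups (correlations of 0.125 to 0.66), and the replicate number was therefore also used as a block. Summed macrophage markers (8 of 8 detected) ranged from 16191 to 26759 CPM over all libraries. Neutrophil markers ranged from 8.29 to 107 CPM and T and NK cell markers from 0 to 0.251 CPM. Macrophage markers by group, and dendritic cell and stromal markers, are given below. Levels are given as CPM, the count of a gene scaled to a common library total with TMM factors (which adjust for RNA composition), or as CPM per kilobase of the longest coding transcript where genes are compared with each other.

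Of the 32 members, 31 passed the filter on low counts and were tested. Egln3 did not, with at most 2.02 CPM in any library. Per kilobase, the most abundant members were the aldolase Aldoa and the pyruvate kinase Pkm in all 4 groups. The lactate dehydrogenase Ldha came next in every group except LPS-treated cells without serine, where the transporter Slc2a6 did. Aldoa averaged 604 ± 74.4 CPM per kb in LPS-treated cells without serine, 736 ± 125 in LPS-treated cells with serine, 737 ± 174 in untreated cells without serine and 679 ± 73.1 in untreated cells with serine (SD, n = 4 each). Pkm averaged 357 ± 40.5, 403 ± 71.4, 413 ± 64.9 and 402 ± 28.4 CPM per kb in the same order of groups. For both genes the ranges of the 4 groups overlapped. Egln3 was the least abundant member in every group, followed by Slc2a3 in LPS-treated cells of both media and by Pfkm in untreated cells of both media.

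After LPS, the largest changes among the members were rises of the transporter Slc2a6 and the regulator Pfkfb3, while the enzymes from glucose-6-phosphate isomerase to lactate dehydrogenase gave no call in serine medium apart from the phosphofructokinase Pfkp. In serine medium, 10 members rose after LPS and 4 fell at an adjusted p of 0.05 (edgeR's quasi-likelihood test, Benjamini-Hochberg over 11004 genes), beside 27.6% of all tested genes that rose and 28.2% that fell. In medium without serine, 11 members rose and 7 fell, beside 27.1% and 29.7% of all genes. The median log2 fold change of the 31 members was 0.158 with serine and -0.164 without, against -0.0293 and -0.123 over all genes. Within replicate pairs, 15 members were higher after LPS in every pair with serine and 7 lower, beside 37% and 39% of all genes, and without serine 10 were higher and 12 lower, beside 30.9% and 31.1%. In bulk RNA, fewer cells of a type and less RNA per cell cannot be told apart.

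**Figure D1:**
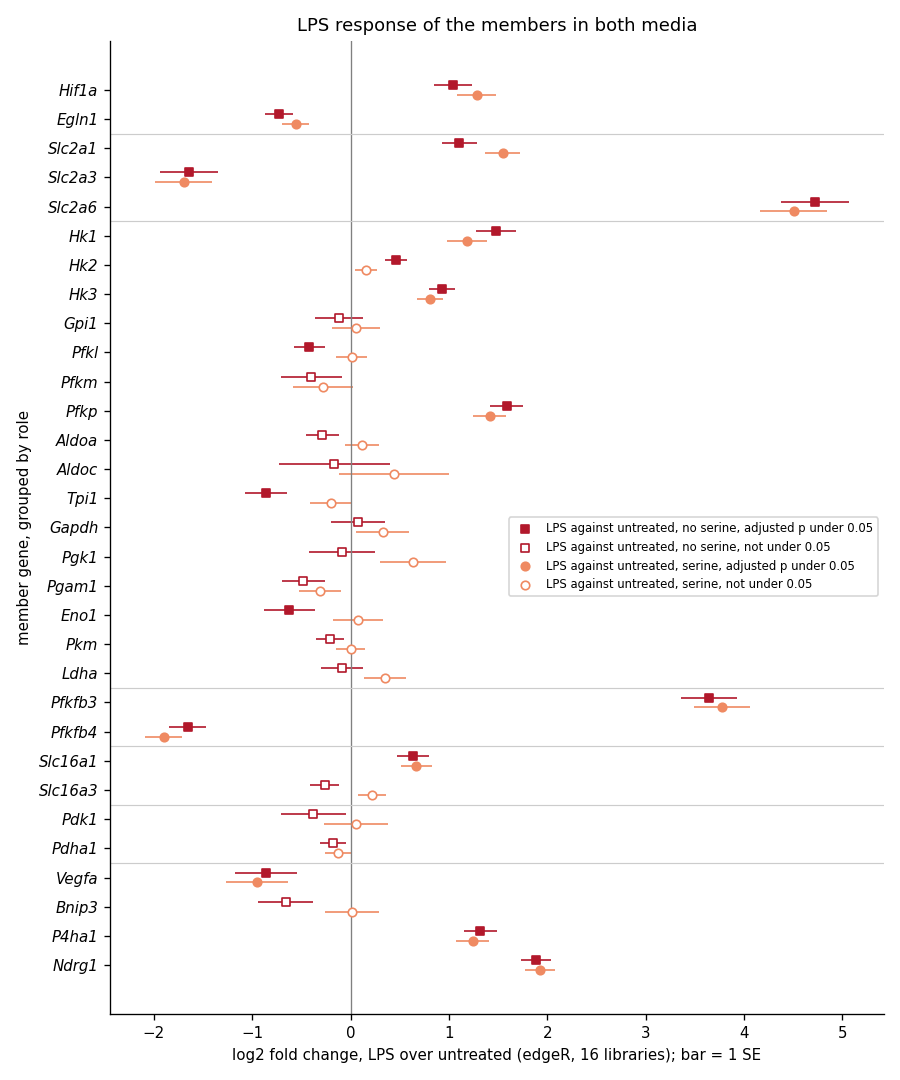
Log2 fold change of the 31 tested members, LPS over untreated, in medium without serine (squares) and with serine (circles), from the edgeR fit to 16 libraries; bars are 1 SE and filled symbols have an adjusted p under 0.05. Slc2a6 and Pfkfb3 lie farthest to the right and Pfkfb4 and Slc2a3 farthest to the left in both media, and most enzymes lie near 0.

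The LPS comparisons depend on library scaling. TMM factors were 0.781 to 0.861 in LPS-treated libraries and 1.03 to 1.27 in untreated ones, and scaling to total counts instead moved the median of all genes by -0.615 with serine and -0.568 without. Under that scaling 8 members were called higher and 15 lower in serine medium, beside 15.1% and 58.2% of all genes, and 9 higher and 17 lower without serine, beside 15.3% and 59.7%. With the replicate block and without the library that stands apart, 15 were higher and 7 lower with serine (36.5% and 37.5% of all genes) and 11 higher and 11 lower without (35% and 35.8%). Pairing only the 8 libraries of each comparison, a fit chosen after the data had been seen, gave 15 higher and 5 lower with serine (35.7% and 36.5% of all genes) and 9 higher and 6 lower without (23.3% and 22.3%). In that fit Vegfa lost its call in both media, and Hk2, Slc16a1 and Pfkl lost theirs without serine. Hif1a, Slc2a1, Slc2a6, Hk1, Pfkp, Pfkfb3, P4ha1 and Ndrg1 were called higher in both media under both scalings. Shares of isozymes within a library, given below, do not depend on scaling.

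Hif1a, the alpha subunit gene, rose in both media. In serine medium it stood at 519, 332, 369 and 386 CPM in LPS-treated libraries (replicates 1 to 4), against 209.6, 138, 158 and 154 CPM in untreated ones. In medium without serine it stood at 513, 320.4, 344 and 364 CPM in LPS-treated libraries, against 235, 153, 157 and 203 CPM in untreated ones. Every LPS-treated library lay above every untreated one, and replicate 1 was the highest of its group in all 4 groups. The log2 fold change was 1.28 ± 0.20 with serine (SE, adjusted p = 3.02e-05) and 1.04 ± 0.19 without (adjusted p = 0.000236), and 0.66 and 0.48 under total-count scaling. Within the 4 replicate pairs the log2 ratio with serine was 1.31, 1.26, 1.22 and 1.32.

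Of the feedback genes, Egln1, the main prolyl hydroxylase acting on HIF-1, fell in both media. It stood at 23.7, 30.6, 27.9 and 31.2 CPM after LPS, against 39.5, 37.9, 41.4 and 48.2 CPM untreated, in serine medium. It stood at 24.1, 24.3, 30.6 and 23.0 CPM after LPS, against 34.4, 41.5, 44.2 and 49.9 CPM untreated, without serine. The groups did not overlap in either medium, and the log2 fold changes were -0.56 ± 0.14 with serine and -0.73 ± 0.14 without (adjusted p = 0.00259 and 0.000317). Egln3, another prolyl hydroxylase of HIF-1, had 0 to 7 counts per library in the 16 libraries, so a difference was not detectable at this depth.

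The 3 glucose transporters diverged. Slc2a6 (GLUT6, found on lysosomal membranes) had the largest rise of any member. It stood at 755, 486, 592 and 589 CPM after LPS, against 40.6, 23.6, 18.2 and 23.7 CPM untreated, with serine. Without serine the values were 697, 486, 598 and 554 CPM after LPS, against 39.4, 18.1, 17.7 and 10.8 CPM untreated. The lowest LPS-treated library was more than 10 times the highest untreated one. Log2 fold changes were 4.51 ± 0.34 with serine and 4.72 ± 0.35 without (adjusted p = 8.2e-09 and 6.26e-09). Slc2a1 (GLUT1, the widespread plasma membrane transporter) stood at 172, 134, 117 and 147 CPM after LPS, against 56.5, 57.9, 39.5 and 40.9 CPM untreated, with serine. The values without serine were 147, 121, 102 and 110.3 CPM after LPS, against 63.5, 57.6, 41.2 and 60.7 CPM untreated. It rose by a log2 fold change of 1.55 ± 0.18 with serine and 1.10 ± 0.18 without (adjusted p = 1.4e-06 and 5.63e-05), again with no overlap between groups.

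Slc2a3 (GLUT3, a high-affinity glucose transporter) fell. With serine it stood at 4.32, 7.08, 4.57 and 4.64 CPM after LPS, against 15.7, 18.3, 15.5 and 17.5 CPM untreated. Without serine it stood at 4.57, 6.59, 5.23 and 2.92 CPM after LPS, against 15.1, 21.3, 16.2 and 6.07 CPM untreated. The groups were apart with serine, and without serine they overlapped through replicate 4 of the untreated cells, the library that stands apart. Log2 fold changes were -1.70 ± 0.29 with serine and -1.64 ± 0.29 without (adjusted p = 0.0001 and 0.000165).

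**Figure D2:**
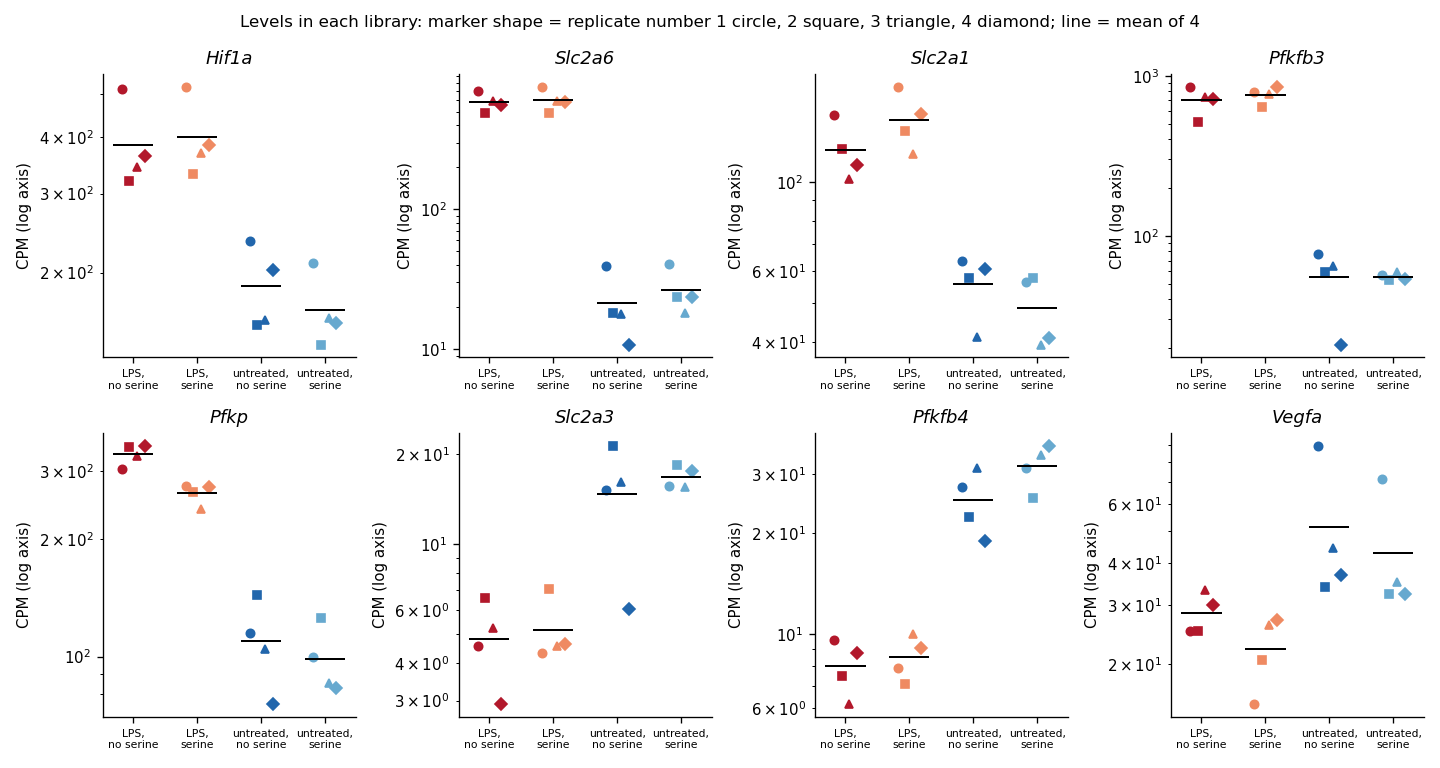
CPM on a log axis in each of the 16 libraries for 8 members, with groups from left to right as LPS without serine, LPS with serine, untreated without serine and untreated with serine; marker shape gives the replicate number and the line the mean of 4. Hif1a, Slc2a6, Slc2a1, Pfkfb3 and Pfkp are higher after LPS in every library, Slc2a3, Pfkfb4 and Vegfa have lower means, and replicate 1 (circles) is highest in every group for Hif1a and Slc2a6.

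Within the library, per kilobase, the makeup of the 3 transporters turned over. Slc2a6 made up 87.7% ± 1.72 of the 3 in LPS-treated cells without serine and 86.2% ± 1.69 in LPS-treated cells with serine, against 31.0% ± 10.2 in untreated cells without serine and 38.6% ± 6.34 in untreated cells with serine (SD, n = 4 each). Slc2a1 made up 11.9% ± 1.62 and 13.4% ± 1.57 in LPS-treated cells without and with serine, against 56.8% ± 12 and 47.6% ± 4.58 in untreated cells without and with serine. The share of Slc2a6 in the 8 LPS-treated libraries ran from 84.2% to 89.6%, above the 20% to 47.2% of the 8 untreated ones.

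Among the 16 glycolytic enzymes, 3 rose in serine medium and none fell, and 4 rose and 3 fell without serine, beside the shares of all genes given above (27.6% and 28.2% with serine, 27.1% and 29.7% without). Under total-count scaling 2 enzymes were called higher and 8 lower with serine, and 3 higher and 9 lower without, beside 15.1% and 58.2%, and 15.3% and 59.7%, of all genes. The 3 that rose in both media all belong to the first steps: the hexokinases Hk1 and Hk3, which phosphorylate glucose, and the phosphofructokinase isozyme Pfkp. Hk1 stood at 218, 221, 199 and 205 CPM after LPS, against 88.8, 106, 84.0 and 90.6 CPM untreated, with serine, a log2 fold change of 1.19 ± 0.20 (adjusted p = 0.000106). Without serine Hk1 stood at 244, 213, 222 and 226 CPM after LPS, against 88.5, 99.3, 96.4 and 37.8 CPM untreated, a log2 fold change of 1.48 ± 0.21 (adjusted p = 1.28e-05). All LPS-treated libraries were above all untreated ones, and the untreated replicate 4 without serine was far below its group. Hk3 averaged 445 ± 48.9 CPM after LPS and 254 ± 21.9 CPM untreated with serine, and 510.0 ± 71.2 CPM after LPS and 268 ± 33.5 CPM untreated without serine (SD, n = 4 each). Its log2 fold changes were 0.81 ± 0.13 and 0.93 ± 0.13 (adjusted p = 5.81e-05 and 1.52e-05), but 0.19 with serine under total-count scaling (adjusted p = 0.252).

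Hk2, the inducible hexokinase that is a HIF-1 target in many tissues, differed little under TMM scaling. It averaged 191 ± 22.4 CPM after LPS and 172 ± 13.8 CPM untreated with serine, where it was not called (log2 fold change 0.16 ± 0.11, adjusted p = 0.254). Total-count scaling instead called it lower with serine (-0.46, adjusted p = 0.00355). Without serine it averaged 216 ± 27.4 CPM after LPS and 157 ± 3.19 CPM untreated, a log2 fold change of 0.46 ± 0.11 (adjusted p = 0.0024) that became -0.10 under total-count scaling. Hk3 was the largest share of the 3 hexokinases per kilobase in every library, from 55.3% to 66.8%, with no separation of LPS-treated from untreated libraries. Hk1 made up 19.3% to 24.6% in LPS-treated libraries without serine and 20.3% to 24.6% in LPS-treated libraries with serine, against 8.08% to 17.5% in untreated libraries without serine and 15.1% to 17.5% in untreated libraries with serine.

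Of the 3 phosphofructokinases, which catalyse the committing step, Pfkp rose, and it is the platelet-type isozyme. With serine it stood at 274, 264, 239 and 273 CPM after LPS, against 99.9, 125, 85.5 and 82.8 CPM untreated. Without serine it stood at 303, 345, 327 and 348 CPM after LPS, against 115, 144, 104 and 75.5 CPM untreated. The groups were apart in both media, with log2 fold changes of 1.42 ± 0.17 and 1.59 ± 0.17 (adjusted p = 2e-06 and 5.77e-07). The liver-type isozyme Pfkl averaged 48.8 ± 5.89 CPM after LPS and 48.5 ± 3.29 CPM untreated with serine (log2 fold change 0.01 ± 0.15, adjusted p = 0.964). Without serine Pfkl averaged 34.2 ± 5.98 CPM after LPS and 46.3 ± 9.83 CPM untreated, a log2 fold change of -0.42 ± 0.16 (adjusted p = 0.0307), a call that ended when any of 4 libraries was left out (LPS replicate 2 or 4, or untreated replicate 3 or 4, all without serine; -0.40 to -0.30). The muscle-type Pfkm was rare, at 2.82 to 4.91 CPM after LPS and 3.64 to 5.57 CPM untreated with serine (log2 fold change -0.28 ± 0.30), and 2.34 to 4.86 and 2.95 to 7.31 CPM without serine (-0.40 ± 0.31), and was not called. Pfkp made up 88.4% ± 2.10 of the 3 isozymes in LPS-treated cells without serine and 81.5% ± 2.15 in LPS-treated cells with serine, against 64.5% ± 10.3 in untreated cells without serine and 61.4% ± 6.25 in untreated cells with serine.

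**Figure D3:**
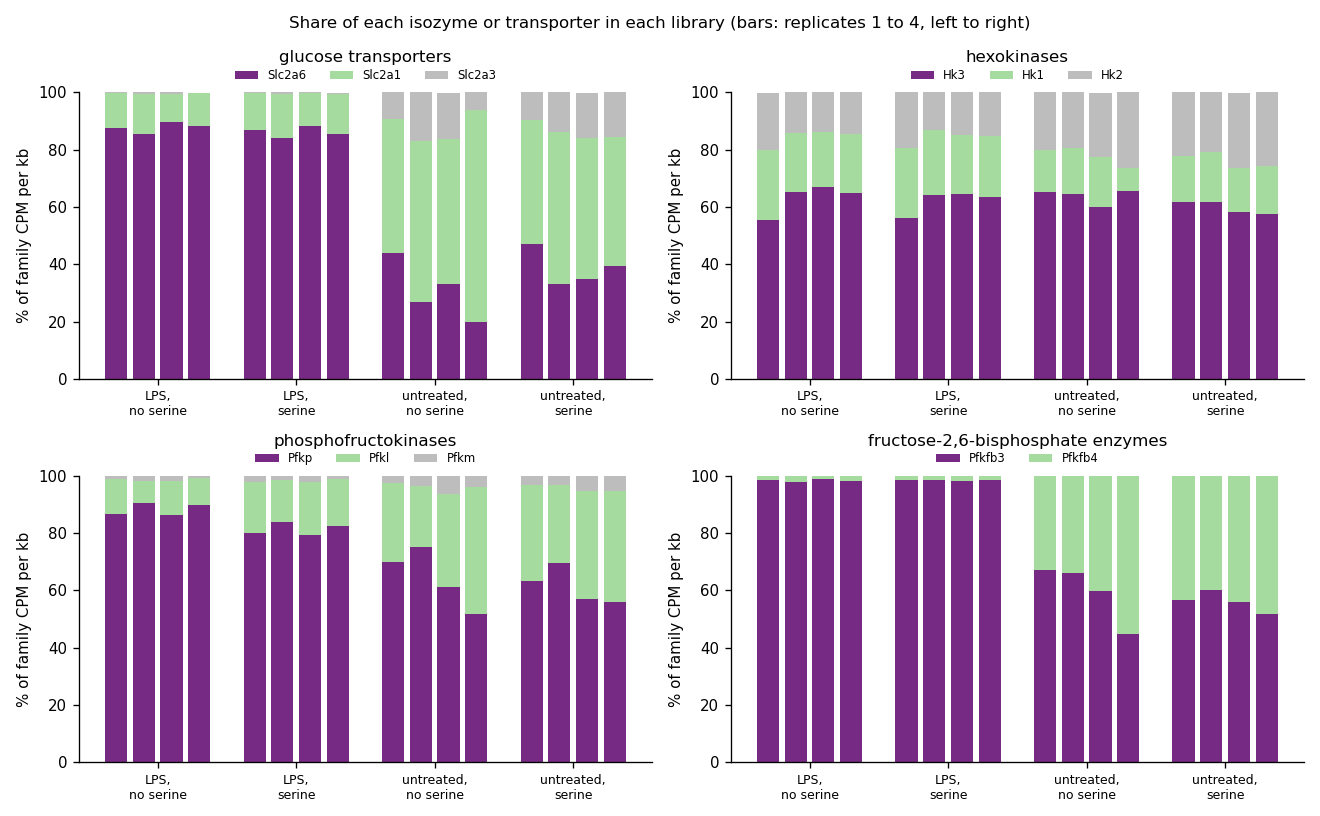
Share of each gene in the summed CPM per kilobase of its family, in percent, in each library (bars for replicates 1 to 4 within each group, groups from left to right as LPS without serine, LPS with serine, untreated without serine, untreated with serine). Slc2a6, Pfkp and Pfkfb3 take a larger share in every LPS-treated library than in any untreated one, as does Hk1 among the hexokinases, and the share of Hk3 shows no such split.

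The 10 enzymes of the chain from glucose-6-phosphate isomerase to lactate dehydrogenase without a changed isozyme in serine medium (Gpi1, Aldoa, Aldoc, Tpi1, Gapdh, Pgk1, Pgam1, Eno1, Pkm and Ldha) had log2 fold changes from -0.31 (Pgam1) to 0.64 (Pgk1) and none was called. Pgk1, phosphoglycerate kinase, averaged 142 ± 54.6 CPM after LPS and 91.2 ± 25.9 CPM untreated (log2 fold change 0.64 ± 0.33, adjusted p = 0.118). The aldolase Aldoc averaged 18.5 ± 11.3 CPM after LPS and 13.6 ± 6.41 CPM untreated (0.44 ± 0.56), and the phosphoglycerate mutase Pgam1 38.8 ± 6.37 and 48.2 ± 8.34 CPM (-0.31 ± 0.21). Replicate 1 was the lowest of its group for all of these enzymes except Pgam1 in all 4 groups. With the replicate number as a block, 13 members were called higher and 4 lower (29.7% and 30.7% of all genes), the additions being Gapdh (0.30 ± 0.10, adjusted p = 0.0153), Pgk1 (0.60 ± 0.13, adjusted p = 0.00101) and Ldha (0.33 ± 0.13, adjusted p = 0.0386). Total-count scaling with the block gave these 3 genes negative values (Gapdh -0.32, Pgk1 -0.02, Ldha -0.29). That fit called Gapdh and Ldha lower (adjusted p = 0.0305 and 0.0267), so the direction of their call depends on the scaling.

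Without serine, 2 of these 10 enzymes fell, Tpi1 and Eno1, and the other 8 were not called. Tpi1, triosephosphate isomerase, stood at 97.6, 149.5, 149.7 and 129.8 CPM after LPS, against 162, 211, 248 and 339 CPM untreated. The groups did not overlap, and the log2 fold change was -0.86 ± 0.22 (adjusted p = 0.00269). Eno1, the enolase that makes phosphoenolpyruvate, stood at 109, 175, 208 and 179 CPM after LPS, against 162, 242, 328 and 303 CPM untreated. Its groups overlapped, with a log2 fold change of -0.62 ± 0.26 and an adjusted p of 0.0487 that rose past the threshold when any of 12 of the 16 libraries was left out (-0.65 to -0.46), all but replicates 1 and 3 of the LPS-treated cells with serine, replicate 3 of those without and replicate 1 of the untreated cells without. Pgam1 averaged 30.1 ± 5.52 CPM after LPS and 41.4 ± 13.7 CPM untreated (log2 fold change -0.48 ± 0.22, adjusted p = 0.0707). With the replicate block, 11 members were called higher and 11 lower (29.4% and 31.6% of all genes), the additions being Aldoa (-0.27 ± 0.10), Pgam1 (-0.46 ± 0.15), Pdk1 (-0.41 ± 0.12) and Bnip3 (-0.64 ± 0.23), with adjusted p = 0.037, 0.0148, 0.0109 and 0.0264.

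The PFKFB pair moved in opposite directions. Pfkfb3, whose kinase activity dominates and which raises the activator of phosphofructokinase, stood at 792, 642, 764 and 847 CPM after LPS, against 56.5, 52.7, 59.7 and 53.5 CPM untreated, with serine. The values without serine were 856, 516, 734 and 719 CPM after LPS, against 77.5, 59.4, 64.4 and 20.9 CPM untreated. All LPS-treated libraries were far above all untreated ones, with log2 fold changes of 3.77 ± 0.29 and 3.65 ± 0.28 (adjusted p = 8.37e-09 and 1.32e-08). Pfkfb4, its paralog, stood at 7.89, 7.08, 9.99 and 9.07 CPM after LPS, against 31.2, 25.4, 34.3 and 36.5 CPM untreated, with serine. Without serine it stood at 9.59, 7.46, 6.17 and 8.77 CPM after LPS, against 27.5, 22.4, 31.4 and 18.9 CPM untreated. It was lower in every LPS-treated library than in any untreated one, with log2 fold changes of -1.90 ± 0.19 and -1.66 ± 0.19 (adjusted p = 2.06e-07 and 1.31e-06). Per kilobase, Pfkfb3 made up 98.4% ± 0.335 of the pair in LPS-treated cells without serine and 98.5% ± 0.178 with serine, against 59.4% ± 10.4 in untreated cells without serine and 56.1% ± 3.53 with serine.

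The lactate transporters responded less. Slc16a1 (MCT1) averaged 18.6 ± 1.91 CPM after LPS and 11.6 ± 1.08 CPM untreated with serine, and 17.8 ± 3.23 and 11.6 ± 2.26 CPM without serine. It was called higher in both media (0.67 ± 0.16, adjusted p = 0.00193, and 0.64 ± 0.16, adjusted p = 0.00318), but stood at 0.05 and 0.07 under total-count scaling, where it was not called. Slc16a3 (MCT4, the lactate exporter of glycolytic cells) was not called in either medium under TMM scaling without pairing, with log2 fold changes of 0.22 ± 0.14 with serine and -0.26 ± 0.15 without. Total-count scaling called it lower in both media (-0.40 with serine, adjusted p = 0.00777). With serine, the block without the library that stands apart called it higher (0.21, adjusted p = 0.0318). Pairing only the 8 libraries of that comparison did too (0.20, adjusted p = 0.0418). It averaged 53.6 ± 5.86 CPM after LPS and 46.1 ± 2.99 CPM untreated with serine, and 33.7 ± 5.66 CPM after LPS and 41.0 ± 8.03 CPM untreated without serine. The genes at the entry of pyruvate into mitochondria were not called without pairing: Pdk1, a kinase that inhibits pyruvate dehydrogenase, averaged 19.0 ± 7.05 and 18.2 ± 4.02 CPM with serine after LPS and untreated, and Pdha1, a subunit of that complex, 55.2 ± 6.54 and 60.2 ± 5.43 CPM.

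Of the 4 other HIF-1 targets, 2 rose, 1 fell and 1 was not called in either medium under TMM scaling without pairing. Among all genes, 27.6% rose and 28.2% fell with serine, and 27.1% and 29.7% without. Ndrg1, a stress-induced gene, stood at 122, 95.5, 94.7 and 89.3 CPM after LPS, against 24.1, 28.1, 27.3 and 26.2 CPM untreated, with serine, a log2 fold change of 1.92 ± 0.15 (adjusted p = 1.65e-08). The values without serine were 174, 119, 108 and 112 CPM after LPS, against 32.4, 38.9, 34.9 and 32.7 CPM untreated (1.89 ± 0.15, adjusted p = 2.18e-08). P4ha1, a collagen prolyl hydroxylase subunit, averaged 191 ± 34.5 CPM after LPS and 80.6 ± 4.87 CPM untreated with serine, and 192 ± 44.4 and 76.8 ± 9.23 CPM without serine (1.24 ± 0.17 and 1.32 ± 0.17, adjusted p = 8.62e-06 and 5.14e-06). For both genes every LPS-treated library lay above every untreated one of the same medium.

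Vegfa, an angiogenic growth factor, stood at 15.2, 20.6, 26.1 and 27.0 CPM after LPS, against 71.2, 32.2, 35.1 and 32.3 CPM untreated, with serine. In its absence the values were 25.1, 25.1, 33.3 and 30.01 CPM after LPS, against 89.5, 33.9, 44.2 and 36.8 CPM untreated. The groups did not overlap, and replicate 1 was far above the other untreated libraries in both media. Vegfa fell by 0.95 on the log2 scale with serine and by 0.86 without (adjusted p = 0.0179 and 0.0279). With serine the call ended without replicate 1 of the untreated cells (-0.59, adjusted p = 0.102) or of the LPS-treated cells (-0.80, adjusted p = 0.0616), and without serine it ended without replicate 1 of the untreated cells (-0.43, adjusted p = 0.176) or without replicate 1 or 2 of the LPS-treated cells (-0.81 each). Bnip3, a receptor for mitophagy, averaged 17.1 ± 7.64 CPM after LPS and 16.9 ± 1.54 CPM untreated with serine (0.02 ± 0.27), and 12.9 ± 2.25 and 21.0 ± 7.93 CPM without serine (-0.66 ± 0.28, adjusted p = 0.0555). Total-count scaling called Bnip3 lower in both media (-0.61 with serine, adjusted p = 0.0318), and the replicate block called it lower without serine, as given above.

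Markers of some other cells moved with LPS too. Dendritic cell markers (6 of 6 detected) summed to 9.94 to 12.7 CPM in LPS-treated libraries without serine and 13.1 to 16.6 with serine, against 2.02 to 2.82 in untreated libraries without serine and 1.39 to 2.83 with serine. In LPS-treated libraries these sums were thus also lower without serine than with it, with no overlap. Stromal markers (5 of 5 detected) summed to 14.8 to 38.9 and 22 to 44.5 CPM after LPS without and with serine, against 1.01 to 20 and 1.53 to 17.7 CPM untreated without and with serine. Neutrophil markers overlapped, at 14.2 to 81.3 and 10.5 to 97.3 CPM after LPS without and with serine. Untreated libraries held 10.4 to 107 and 8.29 to 84.5 CPM without and with serine. Mast cell and basophil markers, at most 4.94 CPM, were lower after LPS with serine and overlapped without. B and plasma cell markers, at most 1.21 CPM, were higher after LPS with serine and overlapped without. Macrophage markers overlapped between LPS-treated and untreated libraries under TMM scaling. Under total-count scaling they were lower after LPS, at 15167 to 18853 and 16073 to 20130 CPM without and with serine. Untreated libraries then held 20588 to 27629 and 21564 to 27757 CPM. These sums do not show which genes of a list, or which cells, carried a change. The part of other cell types in the LPS and withdrawal results was not tested.

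Serine withdrawal in LPS-treated cells gave no call among the members without pairing. With the replicate block over all libraries, the enolase Eno1 and the lactate exporter Slc16a3 were called lower. Calls of further enzymes came only from fits without the library that stands apart or within the 8 LPS-treated libraries, described below. Compared without pairing over all 16 libraries, no member was called in either direction, beside 0.0545% of all genes called higher and 0.00909% lower (6 and 1 of 11004 genes; 676 genes had an unadjusted p under 0.05, and DESeq2 called 73 higher and 18 lower, 0.663% and 0.164%, among them 1 member, Slc16a3, lower). Within the 4 replicate pairs, 15 of the 31 members were lower without serine in every pair and 5 were higher in every pair, against 16% and 18.6% of all genes. Among the 16 enzymes, 10 were lower in every pair (Gpi1, Pfkl, Aldoa, Tpi1, Gapdh, Pgk1, Pgam1, Eno1, Pkm and Ldha) and 3 were higher in every pair (Hk2, Hk3 and Pfkp). The median log2 fold change of the members was -0.174, against 0.00317 over all genes.

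Eno1 stood at 109, 175, 208 and 179 CPM in LPS-treated cells without serine, against 172, 301, 396 and 305 CPM in LPS-treated cells with serine. The groups overlapped, with replicate 1 low in both, while each library without serine was below its partner, with log2 ratios of -0.65, -0.78, -0.93 and -0.77 in pairs 1 to 4. Without pairing, the log2 fold change was -0.81 ± 0.26 (adjusted p = 0.37), and with the replicate block -0.79 ± 0.11 (adjusted p = 0.00432). With the block it stayed past the threshold when each of the 16 libraries was left out in turn (-0.85 to -0.72). In untreated cells the pairs had log2 ratios of -0.45, -0.12, 0.04 and -0.05.

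Slc16a3, the lactate exporter, stood at 39.0, 25.8, 36.3 and 33.9 CPM in LPS-treated cells without serine, against 51.5, 46.8, 60.5 and 55.9 CPM in LPS-treated cells with serine, and the groups did not overlap. Its log2 fold change was -0.67 ± 0.15 without pairing (adjusted p = 0.111) and -0.67 ± 0.13 with the block (adjusted p = 0.0271). With the block it stayed past the threshold in 8 of the 16 fits that each left out 1 library (-0.77 to -0.60), and lost the call without any LPS-treated library other than replicate 1 without serine, or without replicate 3 of the untreated cells with serine. The lactate importer and exporter Slc16a1 stood at 16.3, 20.8, 20.2 and 14.0 CPM without serine, against 17.7, 19.9, 16.3 and 20.4 CPM with serine, and was not called. Slc16a3 made up 65.7% ± 7.17 of the pair per kilobase in LPS-treated cells without serine and 74.6% ± 3.53 in LPS-treated cells with serine, ranges that overlap by little (55.9% to 71.2% and 70.6% to 79.2%).

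With the replicate block over all 16 libraries, Eno1 and Slc16a3 were the only members called in this comparison, 0 higher and 2 lower, beside 0.663% and 0.227% of all genes. That fit takes its spread from all groups, including the library that stands apart. Without that library, 1 member was called higher and 9 lower (4.98% and 3.32% of all genes). In a fit chosen after the data had been seen, which pairs the 8 LPS-treated libraries alone, 5 members were called higher and 14 lower, beside 12.1% and 10.5% of 9989 genes. Leaving out each replicate pair in turn gave 4 to 6 higher and 11 to 16 lower. Among all genes, 936 to 1036 were higher and 765 to 885 lower in these fits, of 9961 to 10090 tested. Of the 14 lower members, 11 (all but Gpi1, Pdha1 and Bnip3) were called whichever pair was left out. So were Hk2, Hk3, Pfkp and Ndrg1 among the higher ones. How many of all genes were called whichever pair was left out was not counted. These fits also share libraries, so the counts of members have no background to be read against. The values that follow are from the paired fit of the 8 LPS-treated libraries, and apart from Eno1, Slc16a3, Pfkl, Tpi1 and Pgk1 the genes were named after these values were seen.

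**Figure D4:**
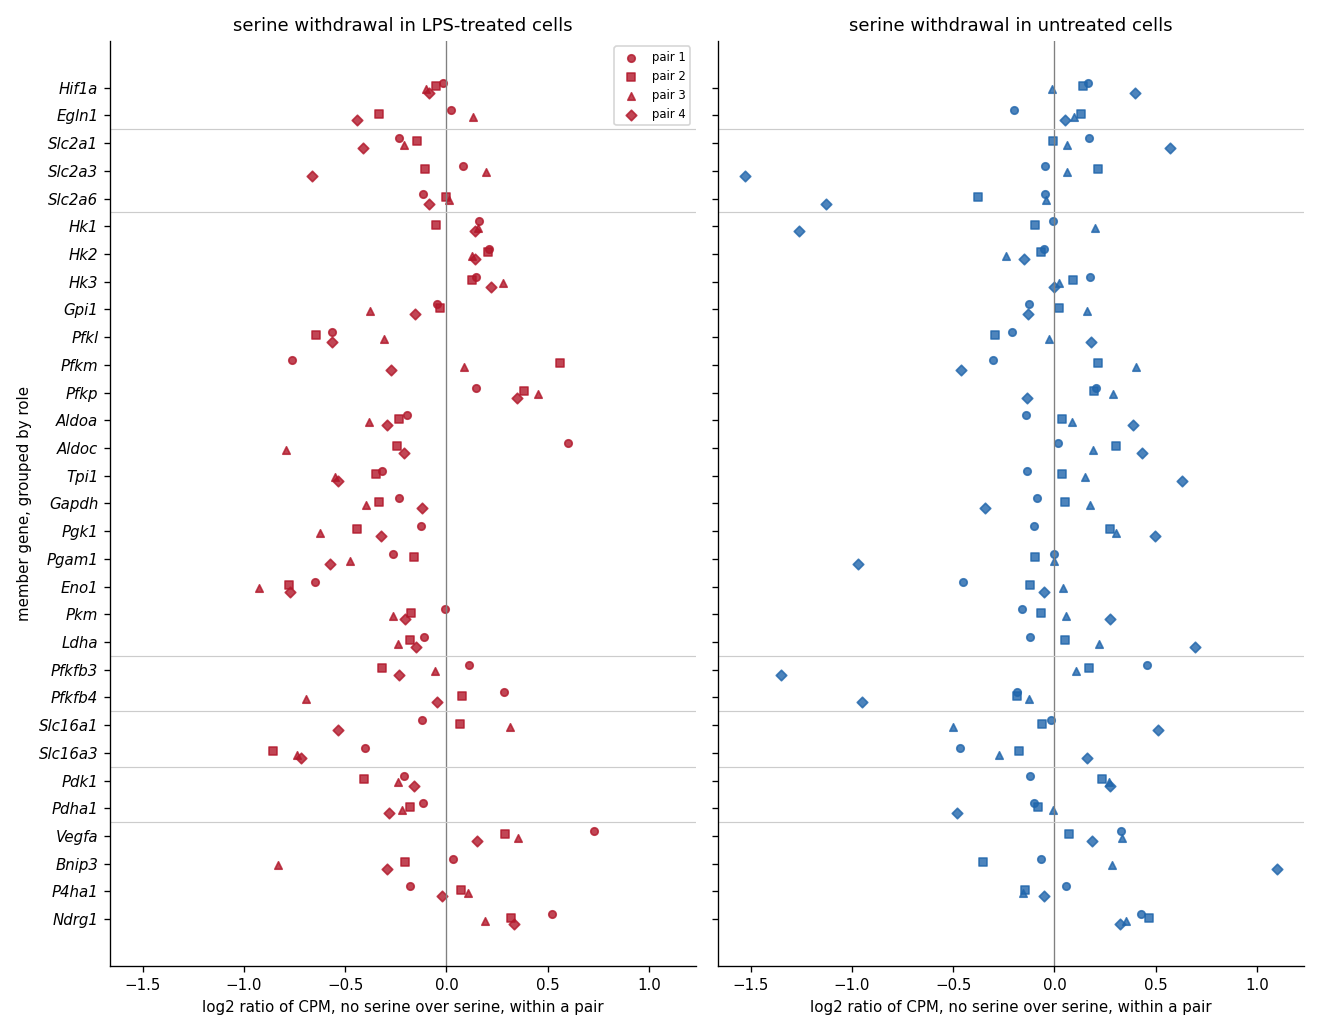
Log2 ratio of CPM, without serine over with serine, within each of the 4 replicate pairs, for LPS-treated cells (left panel) and untreated cells (right panel); marker shape gives the pair and grey lines part the roles. In LPS-treated cells Eno1, Slc16a3, Pfkl and Tpi1 lie left of 0 in all pairs and Pfkp, Hk2, Hk3, Vegfa and Ndrg1 right of 0, and in untreated cells pair 4 lies farthest out for many genes.

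The lower enzymes ran from the isomerase step to lactate dehydrogenase. Pfkl stood at 37.8, 26.5, 40.0 and 32.7 CPM in LPS-treated cells without serine, against 55.8, 41.4, 49.5 and 48.4 CPM with serine, with no overlap (log2 fold change -0.52 ± 0.08, adjusted p = 3.62e-07). Tpi1 stood at 97.6, 149.5, 149.7 and 129.8 CPM without serine, against 122, 190.1, 219 and 188 CPM with serine, and each library was below its partner (-0.44 ± 0.05, adjusted p = 8.11e-11). Pgk1 stood at 68.7, 103, 136 and 115 CPM without serine, against 75.0, 139.7, 209 and 143 CPM with serine (-0.41 ± 0.06, adjusted p = 9.77e-07). For Tpi1 and Pgk1 the groups overlapped through the low replicate 1 of the cells with serine, as they did for Eno1. Gapdh, Aldoa and Pgam1 had log2 fold changes of -0.28, -0.28 and -0.36, and the changes of Gpi1, Pkm and Ldha were smaller, at -0.16, -0.17 and -0.18. Slc2a1, the plasma membrane transporter, was also lower (-0.25 ± 0.05, adjusted p = 6.38e-05), as were Pdha1 (-0.20) and Bnip3 (-0.38).

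Of the 5 members called higher in that fit, Pfkp, Hk3 and Ndrg1 had also risen after LPS in both media. Pfkp stood at 303, 345, 327 and 348 CPM in LPS-treated cells without serine, against 274, 264, 239 and 273 CPM in LPS-treated cells with serine. Every library without serine was above every library with serine, and the log2 fold change was 0.33 ± 0.04 (adjusted p = 7.5e-09). With Pfkl lower and Pfkp higher, the share of Pfkp among the phosphofructokinases was 86.4% to 90.6% in libraries without serine and 79.5% to 84% in libraries with serine. Hk3 and Hk2 had log2 fold changes of 0.19 ± 0.03 and 0.17 ± 0.04, and the HIF-1 targets Ndrg1 and Vegfa 0.35 ± 0.05 and 0.37 ± 0.10.

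**Figure D5:**
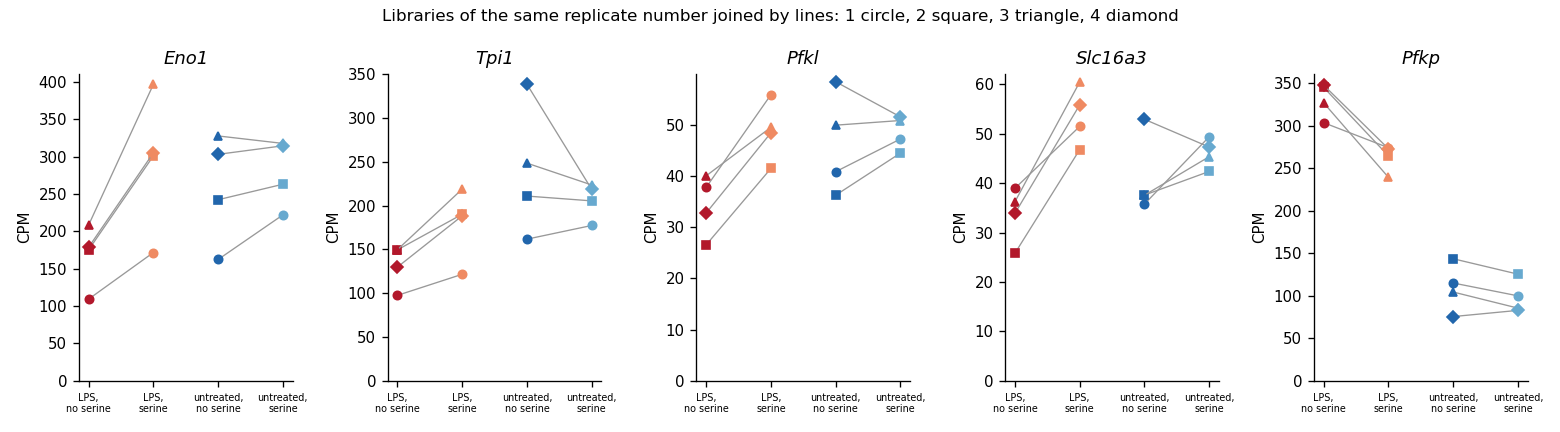
CPM of 5 members in each library, with libraries of the same replicate number joined by a line between the medium without serine (left of each pair of groups) and with serine (right), for LPS-treated cells and untreated cells. In LPS-treated cells all 4 lines rise to the right for Eno1, Tpi1, Pfkl and Slc16a3 and fall for Pfkp. In untreated cells the lines run in both directions for each gene. For Pfkl, Slc16a3 and Pfkp only replicate 4, which holds the library that stands apart, runs against the direction seen in LPS-treated cells.

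Hif1a and the members with the largest LPS responses, Slc2a6 and Pfkfb3, were not called in LPS-treated cells in any of these fits with all pairs. Hif1a stood at 513, 320.4, 344 and 364 CPM in LPS-treated cells without serine and 519, 332, 369 and 386 CPM in LPS-treated cells with serine, a log2 fold change of -0.06 ± 0.19 (adjusted p = 1) and of -0.07 ± 0.03 in the paired fit (adjusted p = 0.179). Slc2a6 averaged 584 ± 88.5 CPM without serine and 606 ± 111 CPM with serine. Pfkfb3 had log2 ratios of 0.11, -0.32, -0.06 and -0.24 in pairs 1 to 4, on either side of 0, and was called lower when pair 1 was left out.

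In untreated cells, serine withdrawal changed no member by the test. None of the 31 was called in either direction without pairing, where 0% of all genes were called (548 had an unadjusted p under 0.05, and DESeq2 called 12 higher and 1 lower), with the replicate block (0.0818% of all genes higher and 0% lower), with the block and without the library that stands apart (0.63% and 0.081%), or in the paired fit of the 8 untreated libraries (0% each). Log2 fold changes ran from -0.33 (Pfkfb4, adjusted p = 0.816) to 0.40 (Ndrg1, adjusted p = 0.816), with Pgk1 at 0.30 ± 0.33 and Hif1a at 0.18 ± 0.19, and the median was 0.0197, against 0.0115 over all genes. Within pairs, 4 members were lower in every pair (Slc2a6, Hk2, Pfkfb4 and Pdha1) and 4 were higher (Hk3, Aldoc, Vegfa and Ndrg1), against 9.87% and 8.72% of all genes. Ndrg1 stood at 32.4, 38.9, 34.9 and 32.7 CPM in untreated cells without serine, against 24.1, 28.1, 27.3 and 26.2 CPM in untreated cells with serine, with no overlap. Pair 4 holds the library that stands apart, and it gave the farthest ratio for many members, such as -1.53 for Slc2a3 and 0.69 for Ldha.

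The difference between the withdrawals was tested directly, and no member was called, beside 0% of all genes (253 genes had an unadjusted p under 0.05, and DESeq2 called 1 higher and none lower). The lowest values were those of Pgk1 (-0.72 ± 0.47), Eno1 (-0.69 ± 0.36) and Bnip3 (-0.68 ± 0.39), with an adjusted p of 0.95 each, and Hif1a stood at -0.24 ± 0.27. With the replicate block Eno1 stood at -0.64 ± 0.15 (adjusted p = 0.828). The block gave 0 calls among the members with all libraries, beside 0% of all genes, and without the library that stands apart, beside 0.036% higher and 0.036% lower. A lower level after withdrawal in LPS-treated cells is therefore not shown to differ from the response of untreated cells.

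Replicate number left a mark on the enzymes of the lower chain in every group. Replicate 1, the male libraries, was the lowest of its group in all 4 groups for 10 of the 31 tested members (Gpi1, Aldoa, Aldoc, Tpi1, Gapdh, Pgk1, Eno1, Pkm, Ldha and Pdk1), against 5.1% of all genes, and the highest in all 4 groups for 2 (Hif1a and Slc2a6), against 9.03% of all genes. Pgk1, which lies on the X chromosome, stood at 68.7, 75.0, 52.6 and 56.5 CPM in replicate 1 of the LPS-treated cells without and with serine and of the untreated cells without and with serine, and its lowest level in any other library was 86.2 CPM. Aldoc stood at 3.72 to 5.63 CPM in the replicate 1 libraries and at 11.8 to 29.5 CPM in the other 12. With all replicate 1 libraries left out, serine withdrawal in LPS-treated cells again gave no call among the members without pairing.

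Other genes of these pathways, on lists that do not overlap the members, were compared in the same fit, and each pair of log2 fold changes below is for LPS with serine and then without. Among all genes 27.6% rose and 28.2% fell with serine, and 27.1% and 29.7% without; under total-count scaling, where the counts of these lists shift toward lower, the shares were 15.1% and 58.2% with serine and 15.3% and 59.7% without. Of 11 further glycolytic enzymes and regulators tested, 1 rose and 4 fell after LPS in each medium (0 higher and 7 lower in each under total-count scaling). Eno2, a second enolase, rose by 1.47 ± 0.40 with serine and 1.06 ± 0.39 without on the log2 scale (0.85 and 0.48 under total-count scaling, not called), and Pfkfb2, a further PFKFB isozyme, had -1.42 ± 0.35 and -1.66 ± 0.35. Bpgm, which makes bisphosphoglycerate, had -1.48 ± 0.36 and -1.59 ± 0.39. Of 8 genes of the pentose phosphate pathway, 1 rose and 1 fell with serine and 1 rose and 3 fell without, against 1 higher and 6 lower with serine and 1 higher and 7 lower without under total-count scaling. Among them were Rpe, an epimerase, at 1.07 ± 0.11 and 1.05 ± 0.11, and Shpk, sedoheptulokinase, at -2.03 ± 0.37 and -2.66 ± 0.40.

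At the entry of pyruvate into mitochondria, 2 of 11 rose and 2 fell with serine, and 3 rose and 3 fell without (1 higher and 5 lower with serine, and 0 higher and 7 lower without, under total-count scaling). The pyruvate dehydrogenase kinases split, with Pdk2 at -2.50 ± 0.35 and -2.10 ± 0.35 and Pdk3 at 1.10 ± 0.20 and 1.003 ± 0.20, and Dld, a shared subunit of the dehydrogenase complexes, stood at 0.80 ± 0.15 and 0.66 ± 0.15. Under total-count scaling Dld lost its call in both media and Pdk3 without serine. Of 6 further HIF pathway factors, Cited2, which competes with HIF-1 for a coactivator, rose (2.42 ± 0.16 and 2.48 ± 0.16) and Vhl, which marks hydroxylated HIF-1 for degradation, fell (-0.47 ± 0.15 and -0.84 ± 0.15), and total-count scaling gave 1 higher and 4 lower with serine and 1 higher and 5 lower without. Of 16 further HIF target genes, 4 rose and 4 fell in each medium, against 3 higher and 8 lower with serine and 2 higher and 8 lower without under total-count scaling. Among them were Adm, a vasodilator peptide gene at 2.12 ± 1.07 and 2.64 ± 0.908 CPM after LPS without and with serine, against 0.0889 ± 0.121 and 0.0512 ± 0.102 CPM untreated without and with serine (log2 fold changes with and without serine 5.17 ± 0.72 and 4.33 ± 0.71), Angptl4, an inhibitor of lipoprotein lipase (-4.44 ± 0.35 and -4.46 ± 0.35), and Mxi1, a Myc antagonist (-1.87 ± 0.17 and -1.90 ± 0.17). Of 7 glycogen genes, 1 rose and 5 fell in each medium (0 higher and 6 lower in each under total-count scaling), with Gyg, the primer of glycogen synthesis, at -1.13 ± 0.14 and -0.88 ± 0.14, and Pygb, a glycogen phosphorylase, at -0.90 ± 0.16 and -0.67 ± 0.16. No gene of these lists was called in either withdrawal without pairing. With the replicate block, the HIF target Ccng2 and Gyg were called higher in LPS-treated cells, beside 0.663% of all genes. Without the library that stands apart, Ccng2, Hilpda and Gyg were called higher there and P4ha2, Hmox1, Pgd and Tkt lower (4.98% and 3.32% of all genes). In untreated cells that fit called Pdp1 and Gyg higher (0.63% of all genes).

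Several levels carry a limit of counting. Gapdh, Pgk1, Eno1, Aldoa, Tpi1, Pkm and Ldha have processed copies elsewhere in the genome, and the rule for reads that match several places is not given in the sources used here, so their levels are uncertain. The library kit does not mark strand, and annotated exons of other genes overlap 22.3% of the exon bases of Bnip3, 16.2% of Pdha1, 15.3% of Pkm, 11.48% of Gpi1 and 10.2% of Pfkm.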

How the data were processed

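RNA of 16 libraries was sequenced. The read counts per Ensembl gene were deposited by the authors as whole numbers, and the length of each gene was deposited beside them. The tools named, per the submitters' processing notes, are STAR, HTSeq, edgeR, SAMtools and Trimmomatic 0.33, with the mm10 build, and no further detail is given in the sources used here. The deposited length equalled the sum over all annotated transcripts for 18 of the 32 members, so the longest coding transcript of GENCODE M21 was used instead. In the count table, 24 further columns of single samples were left out.

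Counts were fitted in R 4.3.3 with edgeR 4.0.16 (robust quasi-likelihood, two-sided, TMM scaling, default filter, 11004 genes kept, 4 group means over all 16 libraries), with Benjamini-Hochberg adjustment over all genes kept and a threshold of 0.05. The biological coefficient of variation was 20.9%. Same-numbered libraries correlated above 0.1 in their deviations in every pair, so the labels' replicate numbers were taken as pairs and used as a block. Differently numbered libraries had correlations of -0.373 to 0.141, so some of these also passed 0.1. In each comparison the lowest same-number value lay above the highest of these. DESeq2 1.42.0 was an alternative, as were total-count scaling, no filter, 8 libraries only and each library left out. The scripts were tested on simulated data. No 2 libraries were copies (lowest chi-square per degree of freedom 2.04 over 120 pairs). Fold changes are printed for members past the threshold with or without the block, for the 3 largest that miss it and for Hif1a. Others printed (Hk2, Pfkl, Slc16a3, Pdha1 and Bnip3 after LPS, and genes named as such) were added after their values were seen. Alternatives added after seeing the data were the block with total-count scaling, with each library left out, and within the 8 libraries compared. The members and lists were chosen with earlier results of these data known. A gene of the related lists that the rule names is not reported here.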

Additional observations from a re-analysis of the deposited data

Results flagged for a closer look

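In 6 of 128 sets of 4 libraries (a member in a group), the highest or lowest library stood apart from the other 3 by more than Dixon's 95% limit; chance gives about 1 in 20. Egln1 was 30.7 CPM in replicate 3 of LPS-treated cells without serine and 23 to 24.3 CPM in the other 3. Slc2a3 was 7.08 CPM in replicate 2 of LPS-treated cells with serine and 4.32 to 4.64 CPM in the others. Hk3 was 372 CPM in replicate 1 of LPS-treated cells with serine and 460 to 477 CPM in the others. Slc16a3 was 53 CPM in replicate 4 of untreated cells without serine, the library that stands apart, and 35.8 to 37.6 CPM in the others. Vegfa was 71.2 CPM in replicate 1 of untreated cells with serine and 32.2 to 35.1 CPM in the others. Ndrg1 was 174 CPM in replicate 1 of LPS-treated cells without serine and 108 to 119 CPM in the others. Of the 6, 3 were in replicate 1, the male libraries.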

How the results depend on the processing

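In the LPS comparisons the number of members called higher stayed within 1.5 times of 10 with serine and of 11 without in every alternative run, and the number called lower moved more. With serine, 4 were lower in the fit reported (28.2% of all genes), against 15 with total-count scaling (58.2%). The replicate block without the library that stands apart gave 7 (37.5%). The block with total-count scaling gave 19, beside 6749 of 11004 genes. Without serine, 7 were lower (29.7% of all genes), against 17 with total-count scaling (59.7%) and 4 with no filter (2681 of 21180 genes). The replicate block gave 11 (31.6%), and the block without the library that stands apart 11 (35.8%). The block with total-count scaling gave 20, beside 6809 of 11004 genes. Among the members that the printing rule names, total-count scaling turned the sign, with serine, of Aldoc (-0.18, and -0.27 with the block), Gapdh (-0.29 and -0.32) and Ldha (-0.27 and -0.29). With the block it called Gapdh and Ldha lower (adjusted p = 0.0305 and 0.0267) and also turned the sign of Pgk1 (-0.017). Without serine it turned that of Hk2 (-0.10, and -0.11 with the block). Hk2 with serine, which the rule does not name, turned as well (-0.46, and -0.47 with the block). For serine withdrawal in LPS-treated cells, 0 members were called in either direction in the fit reported. DESeq2 called 1 lower (0.164% of all genes), the replicate block 2 lower (0.227%), and the block with total-count scaling 2 lower (19 of 11004 genes). The block without the library that stands apart called 1 higher and 9 lower (4.98% and 3.32%). Within the 8 LPS-treated libraries the block called 5 higher and 14 lower (12.1% and 10.5%). Leaving out 1 library at a time gave 0 to 1 lower without the block, beside 0 to 44 of all genes. With the block it gave 0 to 1 higher and 1 to 9 lower, beside 15 to 553 and 6 to 369 of all genes. The 9 came without the library that stands apart. Hif1a ran from -0.24 to 0.089 in this comparison as single libraries were left out, positive without the first replicate given LPS and serine (0.089) or the second given LPS without serine (0.019). The replicate block and other pairings changed no call of a member in untreated cells or in the difference between the withdrawals, where 0 were called in every alternative run. Of the fold changes of named members under alternatives, 1353 kept direction and side of the threshold, 66 passed it newly, 37 no longer passed it and 11 turned sign. The causes were not tested. Depth limits Egln3, Pfkm and Slc2a3, whose counts are low.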
